A study of Mus musculus with 9 samples.

Results

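The lysosome is the acidic compartment in which cells break down protein, carbohydrate, sulfated glycan and lipid. Its soluble enzymes are made as precursors, carried from the Golgi by sorting adaptors and switched on by low pH, while heavily glycosylated membrane proteins line the organelle and carry transporters and channels. Many of these genes share an E-box in their promoters, CACGTG, which the transcription factor TFEB and its relatives bind. In brain, lysosomal proteases are abundant in microglia and in macrophages that take up debris, and neurons and other glia use the same enzymes for turnover of their own contents.

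The gene group described here was a named list of 48 lysosomal enzyme, membrane, sorting and regulator genes, looked up by symbol in the deposited count table of 18138 genes. All 48 were found, and all 48 were among the 14756 genes that passed the filter on low counts. By role the list held 13 proteases, 15 glycosidases and sulfatases, 6 lipid enzymes or activator proteins, 8 membrane proteins, 4 sorting and maturation factors and 2 regulators.

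The values come from RNA-seq of mouse brain tissue in 9 libraries, 3 per group. The control group is labelled only as control, with no statement of a sham operation or vehicle. The MCAO group had surgery to occlude the middle cerebral artery, which models ischaemic stroke, and the hypidone group had the same surgery followed by hypidone hydrochloride (YL-0919) at 5 mg/kg for 7 days. The labels give no strain, sex, age, brain region, side of the brain or time of sampling, and do not say whether each library came from 1 animal. Libraries are named below by group and by the number in their title, which gives control 4, 5 and 6, MCAO 4, 5 and 6, and hypidone 2, 7 and 8.

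Libraries held 32075682 to 37325027 counts. Libraries within a group were unequal. Control 5 had a summed level of 6 hippocampal neuron markers of 580.4 CPM and of 5 choroid plexus markers of 187 CPM, where the other 8 libraries reached at most 216 and 10.2 CPM. CPM is a gene's count scaled to the size of its library, here after TMM scaling between libraries. A summed level of 10 neuron markers ran from 8746 to 12841 CPM in control, was 11066, 5932 and 8032 CPM in MCAO 4, 5 and 6, and ran from 11338 to 12437 CPM with hypidone. In tissue libraries a lower share of a cell type and less RNA per cell cannot be told apart.

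Lysosomal transcripts took a larger part of the library in every MCAO library than in any other. The 48 genes together made up 0.675%, 0.648% and 0.711% of all counts in control 4, 5 and 6. They made up 0.912%, 2.35% and 1.35% in MCAO 4, 5 and 6, and 0.760%, 0.748% and 0.706% in hypidone 2, 7 and 8. The MCAO libraries did not overlap either of the other groups, and MCAO 5 held more than the other 2 MCAO libraries. The make-up of the pool differed as well. Psap, the precursor of the saposins that help enzymes reach their lipid substrates, gave 25.9% to 29.2% of the members' counts in control and 26.5% to 27.8% with hypidone. It gave 30.4% in MCAO 4, above control, and 17.0% and 22.3% in MCAO 5 and 6, below control. Ctsd, the main lysosomal aspartic protease, gave 6.42% to 6.76% in control, 8.85%, 22.3% and 16.4% in MCAO 4, 5 and 6, and 6.81% to 8.41% with hypidone.

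Levels can be compared between genes only per length, for which the deposited FPKM values were used. In control the highest means were those of Psap at 676 ± 72.1 FPKM (SD, n = 3), of the cysteine protease Ctsb at 361 ± 80.1 FPKM and of Ctsd at 232 ± 5.56 FPKM. In MCAO the mean of Ctsd was 1435 ± 1179.5 FPKM (SD, n = 3), that of Psap 1175 ± 232 FPKM and that of Ctsb 1099.8 ± 724 FPKM. These 3 MCAO means do not differ beyond their spread. With hypidone the order was again Psap at 722 ± 18.1, Ctsb at 417 ± 10.96 and Ctsd at 286 ± 42.5 FPKM. The lowest control means were those of Ctsc, dipeptidyl peptidase 1, at 0.856 ± 0.226 FPKM and of Tfeb at 0.866 ± 0.242 FPKM, which do not differ beyond their spread.

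Promoter sequence of 45 of the 48 members was found in a RefSeq table of GRCm38.p6, 250 bases before to 50 bases after the start of each gene, and none was matched for Ctsb, Ctsh and Asah1. The E-box CACGTG, its own reverse complement, was present in 16 of the 45 (35.6%), against 1467 of 14201 genes of the count table with a promoter sequence (10.3%). The 8-base form TCACGTGA, which contains CACGTG, was in 6 of 45 (13.3%), against 1.68% of count-table genes. The 10-base form GTCACGTGAC, which contains both, was in 1 member, Cln3 (2.22%), against 0.563%. The promoter stretches shown are those of a membrane protein, a protease, another protease with a small change and a maturation factor, followed by that of a channel whose level did not pass the test. Each is written 5′ to 3′ along the gene, with the E-box in capitals, or TCACGTGA where the stretch holds that form. Lamp1 lies at chr8:13159060-13159160 on the plus strand, Lgmn at chr12:102439096-102439181 on the minus strand, Ctsf at chr19:4855046-4855129 on the plus strand, Sumf1 at chr6:108185584-108185635 on the minus strand and Mcoln1 at chr8:3500408-3500456 on the plus strand.
Lamp1: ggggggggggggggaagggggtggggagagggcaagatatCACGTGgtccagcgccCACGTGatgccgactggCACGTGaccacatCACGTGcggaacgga
Lgmn: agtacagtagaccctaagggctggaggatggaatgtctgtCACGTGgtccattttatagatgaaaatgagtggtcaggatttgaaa
Ctsf: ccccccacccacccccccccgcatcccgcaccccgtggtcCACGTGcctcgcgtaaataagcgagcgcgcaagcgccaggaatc
Sumf1: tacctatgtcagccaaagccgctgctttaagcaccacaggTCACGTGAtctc
Mcoln1: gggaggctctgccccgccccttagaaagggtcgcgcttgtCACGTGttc

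Lamp1 carried 4 copies of CACGTG in the stretch shown, the first 61 bases before the start. Of the 16 members with CACGTG, 8 rose in MCAO against control, with a median log2 fold change of 0.82. Of the 29 without it, 15 rose and 1 fell, with a median of 0.75. Over all tested genes 10.6% rose and 9.81% fell, so the 1 of 29 that fell is below its share. With hypidone against MCAO, 8 of the 16 were lower, with a median of -0.70, and 9 of the 29 were lower and 1 higher, with a median of -0.68. Over all tested genes 8.28% were lower and 8.23% higher, so the 1 of 29 higher is below its share. The difference between members with and without the letters was not tested. The Mcoln1 promoter also holds TCACGTGA outside the stretch shown, with its CACGTG beginning 45 bases before the start. Starts here are those of RefSeq and differ from GENCODE M21 for some members. The Lgmn stretch precedes the RefSeq start but lies inside the longer GENCODE gene, at chr12:102394084-102439813. The Cln3 promoter window also lies inside its GENCODE gene, at chr7:126571207-126585817. A match describes the letters in this window and is no evidence that a factor binds there.

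The comparison of MCAO with control addresses how the operated brain differs from control brain. In MCAO 26 of the 48 members were higher, 1 was lower and 21 did not pass the test, while 10.6% of all tested genes were higher and 9.81% lower. The median log2 fold change was 0.85 over the members and 0.01 over all tested genes, or 0.56 and 0.00 without MCAO 5. The groups did not overlap for 25 members higher and 2 lower in MCAO, against 16.5% and 17% of all tested genes. The test was edgeR's quasi-likelihood F test with Benjamini-Hochberg adjustment over all tested genes, and a call is an adjusted p under 0.05. The count of 26 depended on the libraries used, falling to 8 without control 4, 16 without control 5, 6 without control 6 and 15 without MCAO 6. It was 4 when hypidone libraries were left out of the fit, and those settings also lowered the share of all genes called higher, to between 2.38% and 9.12%. Without MCAO 4 the count was 31, where 15.7% of all genes were higher, and Gla, Hexa, Lipa, Cln3 and Gm2a were called in addition.

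Proteases led the group. Of 13, 12 rose in MCAO and only Tpp1 did not pass the test, and the median log2 fold change of the 13 was 1.98. Ctsd was read at 449, 435 and 465 CPM in control 4, 5 and 6, at 857, 4850.5 and 2148 CPM in MCAO 4, 5 and 6, and at 642, 526 and 485 CPM in hypidone 2, 7 and 8. Every MCAO library was above the other 6, with MCAO 5 far above MCAO 4, and every hypidone library was above every control. Ctsd rose in MCAO by a log2 fold change of 2.54 ± 0.51 (SE, adjusted p = 0.0124), and was lower with hypidone than in MCAO by -2.25 ± 0.51 (adjusted p = 0.0207), or by -1.46 without MCAO 5.

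Lgmn, the asparaginyl endopeptidase that also cleaves other cathepsin precursors, stood at 132, 122 and 149.7 CPM in control, at 234, 855 and 537 CPM in MCAO and at 173, 164 and 141 CPM with hypidone, in the same library order. MCAO libraries were all higher than the rest, and control and hypidone overlapped. Its log2 fold change was 2.01 ± 0.38 in MCAO against control (adjusted p = 0.0101) and -1.77 ± 0.38 in hypidone against MCAO (adjusted p = 0.0175). Ctsl, a cysteine endopeptidase, stood at 113, 83.9 and 102 CPM in control, at 184, 572 and 356 CPM in MCAO and at 115, 110.0 and 110.3 CPM with hypidone. Again the MCAO libraries stood above all others. The changes of Ctsl were 1.89 ± 0.34 (adjusted p = 0.0087) and -1.73 ± 0.34 (adjusted p = 0.0132), and Ctsl was the only protease whose rise in MCAO kept its call without each of the 9 libraries in turn and in the fit of the 2 groups alone.

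Ctss, a cysteine protease that works at near-neutral pH and trims the invariant chain of MHC class II, was read at 125, 124 and 125 CPM in control, at 183, 929 and 449 CPM in MCAO and at 160.1, 184 and 116 CPM with hypidone. MCAO 4 lay just below hypidone 7, so MCAO and hypidone overlapped. Its log2 fold changes were 2.06 ± 0.48 (adjusted p = 0.0199) and -1.76 ± 0.47 (adjusted p = 0.0364), and without MCAO 5 they were 1.36 and -1.06, the latter with an adjusted p of 0.0525. Ctsz, a carboxypeptidase, was at 49.7, 38.8 and 47.3 CPM in control, at 68.8, 413 and 149.8 CPM in MCAO and at 67.2, 59.6 and 53.7 CPM with hypidone. The lowest MCAO library was only slightly above the highest hypidone library, and all hypidone libraries were above all controls. Ctsz changed by 2.22 ± 0.53 (adjusted p = 0.0215) and -1.81 ± 0.52 (adjusted p = 0.0451), and by 1.29 and -0.88 without MCAO 5, the latter with an adjusted p of 0.0570.

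Ctsb was at 769, 535 and 865 CPM in control, at 1077, 3496 and 1682 CPM in MCAO and at 852, 819.8 and 813 CPM with hypidone. MCAO libraries were all highest, and control 5 was the lowest of the 9. Ctsb changed by 1.53 ± 0.39 (adjusted p = 0.0262) and -1.33 ± 0.39 (adjusted p = 0.0457), and by 0.95 and -0.75 without MCAO 5, the latter with an adjusted p of 0.0527. Ctsa, a serine carboxypeptidase that also shields beta-galactosidase and neuraminidase from breakdown, was at 104, 94.1 and 109 CPM in control, at 156, 438 and 248 CPM in MCAO and at 119, 109 and 113 CPM with hypidone. The MCAO libraries of Ctsa stood above both other groups. The changes were 1.45 ± 0.31 (adjusted p = 0.0145) and -1.31 ± 0.31 (adjusted p = 0.0231), the latter -0.85 without MCAO 5.

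A pair of cysteine cathepsins changed less and more evenly. Ctsf was read at 47.7, 43.1 and 43.1 CPM in control, at 65.7, 55.1 and 66.9 CPM in MCAO and at 43.5, 47.0 and 45.1 CPM with hypidone. Ctso was read at 42.7, 42.4 and 35.2 CPM in control, at 50.3, 60.6 and 69.1 CPM in MCAO and at 38.1, 44.4 and 41.3 CPM with hypidone. For both, all MCAO libraries were above the other 6 and MCAO 5 was not the highest. Ctsf rose by 0.49 ± 0.11 (adjusted p = 0.0195) and was lower with hypidone by -0.47 ± 0.11 (adjusted p = 0.0249). Ctso rose by 0.58 ± 0.14 (adjusted p = 0.0249) and was lower by -0.54 ± 0.14 (adjusted p = 0.0360).

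Ctsh, an aminopeptidase, was read at 13.9, 13.6 and 14.5 CPM in control, at 16.2, 185 and 54.5 CPM in MCAO and at 19.0, 26.9 and 20.7 CPM with hypidone. MCAO 4 was above control but below every hypidone library, and MCAO 5 was 11.4 times MCAO 4. Ctsh rose in MCAO by 2.61 ± 0.69 (adjusted p = 0.0307), or by 1.35 without MCAO 5, and was not called with hypidone at -1.94 ± 0.67 (adjusted p = 0.0765), or -0.69 without MCAO 5. Ctsc rose by 2.27 ± 0.70 (adjusted p = 0.0492), but by 0.999 with an adjusted p of 0.132 without MCAO 5, and its MCAO and control libraries overlapped. Ctsk, the collagen-cleaving cathepsin of osteoclasts, rose by 1.98 ± 0.55 (adjusted p = 0.0350) at low levels of 1.77 to 27.0 CPM, and lost its call without MCAO 5. Neither Ctsc nor Ctsk passed the test with hypidone, at -1.68 and -1.60 (adjusted p = 0.118 and 0.0713), or -0.41 and -0.999 without MCAO 5. Tpp1, tripeptidyl peptidase 1, ran from 63.1 CPM in MCAO 4 to 147 CPM in MCAO 5 and had a log2 fold change of 0.33 ± 0.28 (adjusted p = 0.421). Rises in MCAO lost their calls on leaving out control 4 for 8 of the 12 proteases, control 5 for 5, control 6 for 10, MCAO 5 for 2, MCAO 6 for 6, hypidone 2 or 7 for 2 each and hypidone 8 for 3, at adjusted p of 0.05005 to 0.140. Falls with hypidone lost theirs without control 4 for 4 of 9, control 6 for 3, MCAO 5 for 3, MCAO 6 for 8 and each of hypidone 2, 7 and 8 for all 9, at adjusted p of 0.0525 to 0.146.

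**Figure D1:**
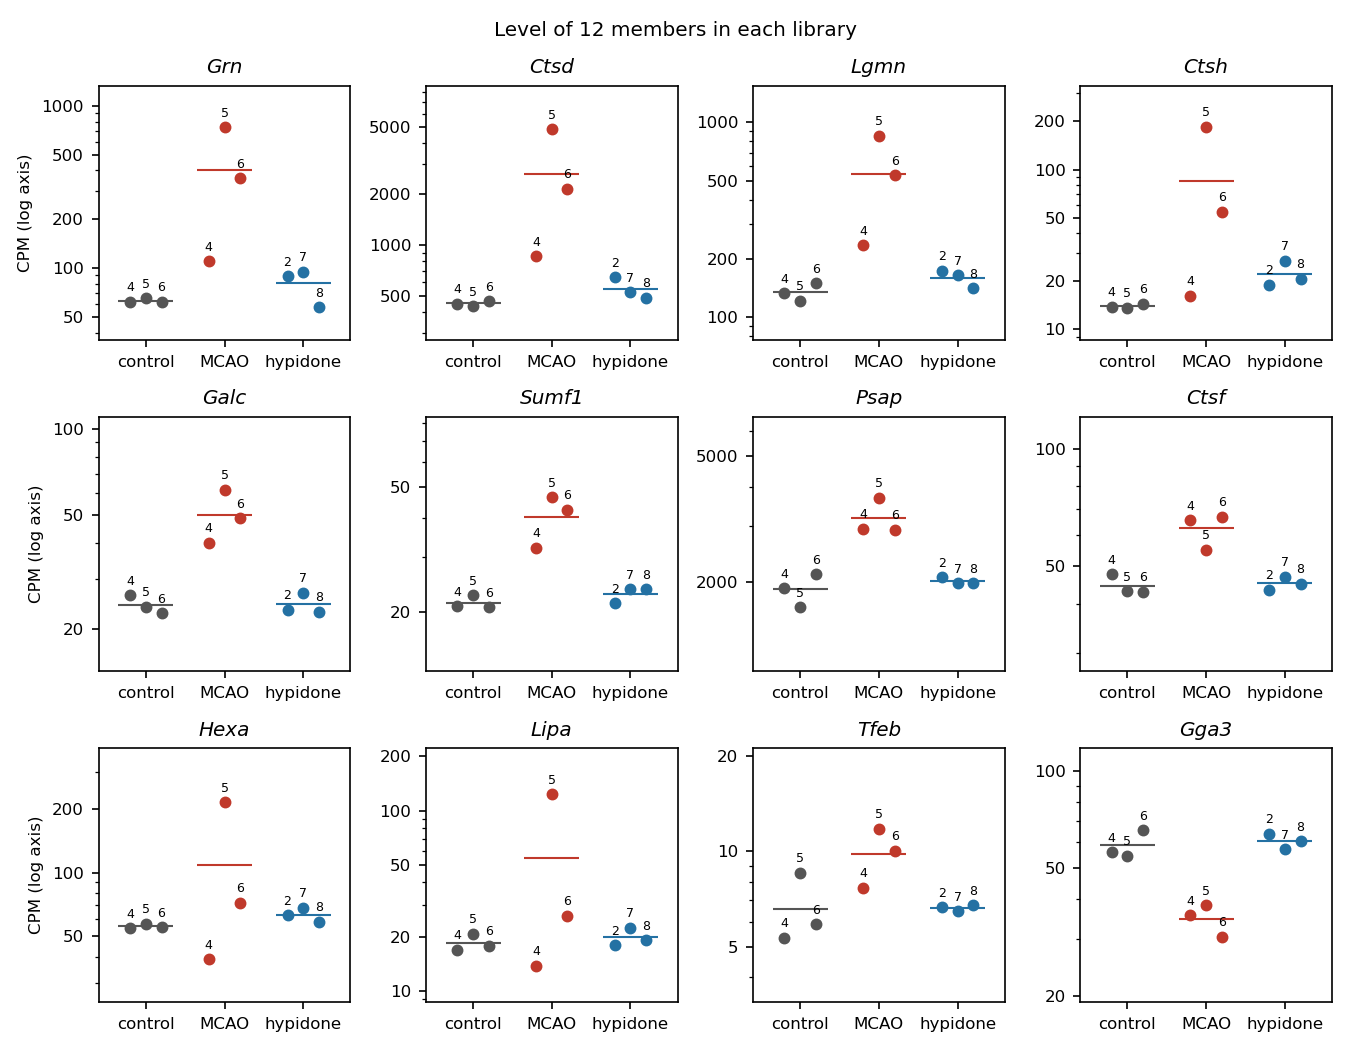
CPM on a log axis in each of the 9 libraries for members named in the text, with a line at each group mean and libraries marked by group. MCAO 5 stands highest for most genes, as at 4850.5 CPM for Ctsd, while Gga3 is lower in all 3 MCAO libraries, at 30.5 to 38.2 CPM, than in any other library.

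Of the 15 glycosidases and sulfatases, which strip sugars and sulfate groups from glycans and glycolipids, 5 rose in MCAO and 10 did not pass the test. Galc, the galactosylceramidase that breaks down myelin lipids, stood at 26.3, 23.9 and 22.7 CPM in control, at 40.1, 61.4 and 48.7 CPM in MCAO and at 23.3, 26.8 and 22.9 CPM with hypidone. The 3 MCAO libraries were close together and above all others, and control and hypidone libraries interleaved. Galc rose by 1.04 ± 0.17 (adjusted p = 0.00626) and was lower with hypidone by -1.04 ± 0.17 (adjusted p = 0.00737), and no left-out library changed either call.

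Man2b1, lysosomal alpha-mannosidase, was at 39.4, 37.5 and 38.8 CPM in control, at 63.4, 166 and 114 CPM in MCAO and at 46.5, 48.6 and 44.0 CPM with hypidone. The 3 groups did not overlap, with hypidone between control and MCAO. Its log2 fold changes were 1.57 ± 0.28 (adjusted p = 0.00868) and -1.31 ± 0.28 (adjusted p = 0.0175). Naglu, which removes N-acetylglucosamine from heparan sulfate, was at 7.47, 7.60 and 6.61 CPM in control, at 10.6, 44.9 and 16.5 CPM in MCAO and at 7.83, 8.91 and 7.03 CPM with hypidone. MCAO libraries were all highest and the others overlapped. Naglu changed by 1.73 ± 0.45 (adjusted p = 0.0297) and -1.60 ± 0.45 (adjusted p = 0.0431), and by 0.92 and -0.79 without MCAO 5.

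Manba, lysosomal beta-mannosidase, was at 7.70, 6.08 and 8.08 CPM in control, at 12.1, 24.0 and 15.1 CPM in MCAO and at 9.18, 11.3 and 10.9 CPM with hypidone. The 3 groups stood apart in that order, hypidone again in between. Manba rose in MCAO by 1.23 ± 0.26 (adjusted p = 0.0148), while the values with hypidone were -0.71 ± 0.26 against MCAO (adjusted p = 0.0876; -0.40 without MCAO 5) and 0.52 ± 0.26 against control (unadjusted p = 0.0755). Gusb, beta-glucuronidase, rose by 2.21 ± 0.59 (adjusted p = 0.0313), or by 1.12 without MCAO 5, and was not called with hypidone at -1.92 ± 0.59 (adjusted p = 0.0539), or -0.82 without MCAO 5. Rises of Gusb and Naglu lost their calls without each of control 4, 5 and 6 and hypidone 7 and 8, and that of Gusb also without MCAO 6 or hypidone 2, at adjusted p of 0.0504 to 0.0967. Falls of Man2b1 and Naglu lost theirs without MCAO 6 and without each hypidone library, and that of Naglu also without control 4 or control 6, at adjusted p of 0.0556 to 0.141.

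The other 10 glycan enzymes had log2 fold changes from -0.12 to 0.97 in MCAO. Hexa, the alpha subunit of beta-hexosaminidase, was at 38.9, 216 and 72.1 CPM in MCAO 4, 5 and 6 and at 54.7 to 57.2 CPM in control, so that MCAO 4 was the lowest of all 9 libraries and MCAO 5 the highest. Its log2 fold change was 0.97 ± 0.49 (adjusted p = 0.187), or 1.37 without MCAO 4 (adjusted p = 0.0244) and 0.01 without MCAO 5. Gla, Sgsh and Glb1 were likewise highest in MCAO 5, at 47.4, 17.5 and 47.8 CPM, and did not pass the test. Ids, iduronate 2-sulfatase, ran the other way within MCAO, at 914, 539 and 746 CPM in MCAO 4, 5 and 6 against 648 to 660.3 CPM in control. Arsa, arylsulfatase A, stayed between 24.3 and 27.6 CPM in all 9 libraries. Gaa, Arsb, Idua and Neu1 had log2 fold changes of 0.07, -0.12, -0.02 and 0.15, none called.

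Of 6 lipid enzymes and activators, Psap and Asah1 rose. Psap was read at 1910.5, 1668 and 2119 CPM in control, at 2944, 3697 and 2924 CPM in MCAO and at 2068, 1980.4 and 1981 CPM with hypidone. The MCAO libraries were above all others, and MCAO 4 and 6 were nearly equal. Psap rose by 0.75 ± 0.18 (adjusted p = 0.0215) and was lower with hypidone by -0.67 ± 0.18 (adjusted p = 0.0355). Asah1, acid ceramidase, rose by 0.94 ± 0.26 (adjusted p = 0.0334), or by 0.61 without MCAO 5, and had -0.80 ± 0.26 with hypidone (adjusted p = 0.0599), or -0.48 without MCAO 5. Lipa, the lysosomal acid lipase, was at 13.8, 124 and 26.2 CPM in MCAO 4, 5 and 6 and at 17.0 to 22.4 CPM in the other 6 libraries. MCAO 4 was thus the lowest of the 9 and MCAO 5 the highest. Lipa was not called at 1.56 ± 0.65 (adjusted p = 0.118), or 0.13 without MCAO 5. Without MCAO 4 it was called, at 2.01 (adjusted p = 0.0202). The sphingomyelinase Smpd1, the activator Gm2a and the thioesterase Ppt1 had 0.03, 0.41 and 0.14 in MCAO, none called. Rises of Psap and Asah1 lost their calls without each control library, MCAO 6 or hypidone 7, and that of Asah1 also without hypidone 2 or 8, at adjusted p of 0.0503 to 0.0815. The fall of Psap lost its call without control 4, control 6, MCAO 6 or any hypidone library, at adjusted p of 0.0605 to 0.134.

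Of the 8 membrane proteins, 5 rose in MCAO, and 3 of those were lower with hypidone. Lamp1, a main glycoprotein of the lysosomal membrane with the promoter shown above, was at 395, 417 and 407 CPM in control, at 553, 907 and 702 CPM in MCAO and at 439, 432 and 420.3 CPM with hypidone. The 3 groups did not overlap, and hypidone lay just above control. Lamp1 changed by 0.83 ± 0.18 in MCAO (adjusted p = 0.0147) and by -0.74 ± 0.18 with hypidone against MCAO (adjusted p = 0.0236). Scarb2, the receptor that carries glucocerebrosidase to the lysosome, was at 135, 141 and 134 CPM in control, at 182, 272 and 204 CPM in MCAO and at 146, 139 and 126 CPM with hypidone. MCAO was above both other groups, which overlapped. The changes of Scarb2 were 0.68 ± 0.15 (adjusted p = 0.0176) and -0.68 ± 0.15 (adjusted p = 0.0206).

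Laptm5, a lysosomal membrane protein of blood-lineage cells, was at 50.1, 57.5 and 50.4 CPM in control, at 72.8, 280.3 and 137 CPM in MCAO and at 62.6, 68.3 and 52.0 CPM with hypidone. MCAO 4 was only slightly above hypidone 7. Laptm5 changed by 1.63 ± 0.40 (adjusted p = 0.0231) and -1.42 ± 0.39 (adjusted p = 0.0407), and by 1.01 and -0.80 without MCAO 5. Cd63, a tetraspanin of late endosomes and exosomes, rose by 1.77 ± 0.51 (adjusted p = 0.0382), but by 0.95 with an adjusted p of 0.0695 without MCAO 5. Lamp2, which also serves in autophagy, rose by 0.91 ± 0.26 (adjusted p = 0.0380), or by 0.52 without MCAO 5. Neither was called with hypidone, at -1.63 ± 0.50 for Cd63 (adjusted p = 0.0559) and -0.74 ± 0.26 for Lamp2 (adjusted p = 0.0782), or -0.81 and -0.35 without MCAO 5. Cln3, Laptm4a and the calcium channel Mcoln1, with 0.80, 0.18 and -0.23, did not pass the test in MCAO. All 5 rises lost their calls without control 4 or control 6, and those of Cd63 and Lamp2 also without control 5, MCAO 6 or any hypidone library, at adjusted p of 0.0572 to 0.122. The 3 falls with hypidone lost theirs without MCAO 6 or any hypidone library, and that of Laptm5 also without control 4 or 6, at adjusted p of 0.0530 to 0.140.

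Among the 4 sorting and maturation factors, Sumf1 rose and Gga3 fell. Sumf1, which activates all sulfatases by making their catalytic formylglycine, was at 21.0, 22.7 and 20.8 CPM in control, at 32.1, 46.3 and 42.4 CPM in MCAO and at 21.4, 23.7 and 23.7 CPM with hypidone. The MCAO libraries were all higher, and the other 6 lay within a narrow span. Sumf1 rose by 0.91 ± 0.15 (adjusted p = 0.00694) and was lower with hypidone by -0.81 ± 0.15 (adjusted p = 0.0113), the latter not called without hypidone 2, 7 or 8, at adjusted p of 0.0501 to 0.0535. Of the sulfatases in the list, Arsa, Arsb, Ids and Sgsh did not pass the test.

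Gga3, an adaptor that packs mannose 6-phosphate receptors and their enzyme cargo at the Golgi, was at 55.9, 54.6 and 65.5 CPM in control, at 35.6, 38.2 and 30.5 CPM in MCAO and at 63.9, 57.0 and 60.5 CPM with hypidone. All 3 MCAO libraries were below all others, and control and hypidone overlapped. Gga3 fell in MCAO by a log2 fold change of -0.75 ± 0.13 (adjusted p = 0.00698) and was higher with hypidone than in MCAO by 0.80 ± 0.13 (adjusted p = 0.00699), and no left-out library changed either call. It was the 1 member called lower in MCAO and the 1 called higher with hypidone. Its relative Gga1 was at 50.3, 49.9 and 56.0 CPM in control, at 47.7, 47.98 and 38.8 CPM in MCAO and at 59.2, 58.8 and 56.0 CPM with hypidone. The groups of Gga1 stood in the order MCAO, control, hypidone with no overlap in CPM, by small margins. In FPKM, MCAO 5 at 15.4 lay within the control range of 14.6 to 16.4. Gga1 did not pass the test in MCAO at -0.22 ± 0.12 (adjusted p = 0.208) or with hypidone at 0.37 ± 0.12 (adjusted p = 0.0576; 0.41 and 0.0453 without MCAO 5), and Gga2 was at 0.02 and 0.03. Exons of Gga3, at chr11:115584255-115604051 on the minus strand in GENCODE M21 (GRCm38), overlap those of Mrps7 on the other strand, whose log2 fold change in MCAO was -0.15 ± 0.16 (adjusted p = 0.531).

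Of the 2 regulators Grn rose and Tfeb did not pass the test. Grn, progranulin, a secreted glycoprotein that reaches the lysosome and is cut there into granulins, was at 62.0, 65.0 and 62.0 CPM in control, at 109.9, 738 and 358 CPM in MCAO and at 89.0, 94.7 and 57.2 CPM with hypidone. All MCAO libraries were above the rest, with MCAO 4 not far above hypidone 7. Grn rose by 2.67 ± 0.56 (adjusted p = 0.0137), the highest log2 fold change of the 48, and was lower with hypidone by -2.32 ± 0.55 (adjusted p = 0.0238). Without MCAO 5 the values were 1.91 and -1.56. The rise lost its call without control 4 or control 6, at adjusted p of 0.0539 and 0.0562, and the fall without MCAO 6 or any hypidone library, at 0.0630 to 0.0996. Tfeb was at 5.33, 8.55 and 5.89 CPM in control, at 7.68, 11.8 and 10.1 CPM in MCAO and at 6.65, 6.46 and 6.77 CPM with hypidone. MCAO overlapped control through control 5 but not hypidone. Tfeb had 0.58 ± 0.24 in MCAO (adjusted p = 0.117) and -0.57 ± 0.24 with hypidone (adjusted p = 0.129).

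The comparison of hypidone with MCAO addresses how operated brain with the compound differs from operated brain without it. With hypidone 18 of the 48 members were lower, 1 was higher and 29 did not pass the test, while 8.28% of all tested genes were lower and 8.23% higher. The median log2 fold change was -0.72 over the members and -0.04 over all tested genes, or -0.42 and -0.01 without MCAO 5. The 18 were 9 proteases, the glycosidases Galc, Man2b1 and Naglu, Psap, the membrane proteins Lamp1, Scarb2 and Laptm5, Sumf1 and Grn. The groups did not overlap for 21 members lower and 3 higher, against 19% and 20.9% of all tested genes. The MCAO libraries enter this comparison and the one before it, so values in them move both with opposite sign. The count of 18 was 11 without control 4, 30 without MCAO 4, 3 without MCAO 6, 1 without each of hypidone 2, 7 and 8, and 9 when control libraries were left out of the fit. The share of all tested genes called lower was 5.97% without control 4, 14.1% without MCAO 4, 2.28% without MCAO 6, 1.66%, 1.56% and 1.55% without hypidone 2, 7 and 8, and 6.66% without the control libraries. The count of 1 of 48 without a hypidone library is near that share. Ctsc, Ctsh, Ctsk, Gla, Gusb, Hexa, Manba, Lipa, Asah1, Lamp2, Cd63 and Cln3, not called with all libraries, were called lower without MCAO 4. Gga1, also not called with all libraries, was called higher there. By the authors' deposited table, 22 members were lower and 1 was higher at a q-value under 0.05, where 12.3% and 11% of its genes were.

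The comparison of hypidone with control gave no call among these genes. In it 0 of the 48 members and 0 of all tested genes (0%) passed edgeR's test, every member's adjusted p rounding to 1. At an unadjusted p under 0.05 there were 0 members and 131 genes (0.888%), and DESeq2 and limma voom also called 0 members. With only these 2 groups in the fit, 6 members were higher at an unadjusted p under 0.05, against 2.12% of all tested genes, and 0 at the adjusted threshold. At the unadjusted threshold 1 was higher with limma voom, and 1 without MCAO 4 or MCAO 5. The shares of all tested genes there were 2.87%, 0.999% and 1.45%, so these counts are near the shares over all genes. Of the 48, 43 had a positive log2 fold change, with a median of 0.13 against -0.01 over all tested genes. All hypidone libraries were above all controls for 12 members, against 3.86% of all tested genes, and were all below for 0 members, against 2.71%. These were Ctsd, Ctsh, Ctsz, Tpp1, Gusb, Hexa, Man2b1, Manba, Lamp1, Lamp2, Cln3 and Gga1. The lowest p-values were those of Manba, of Gga1 at 0.16 ± 0.12 (unadjusted p = 0.213) and of Ctsh at 0.67 ± 0.66 (unadjusted p = 0.340). A p that misses the threshold does not show that the groups are alike.

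**Figure D2:**
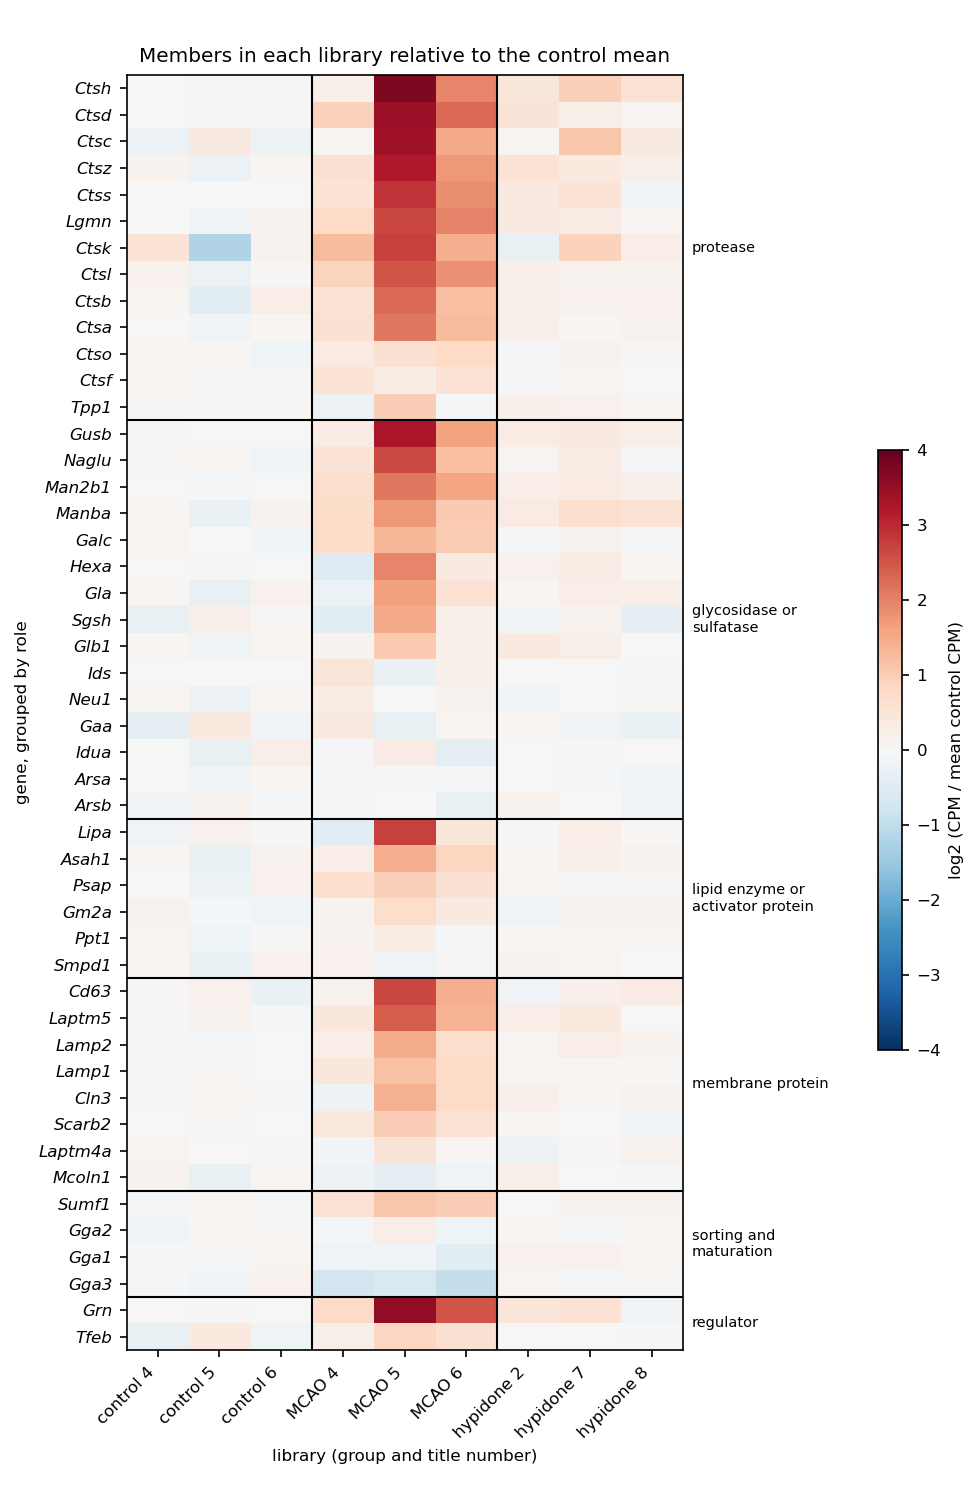
Log2 of the CPM of each of the 48 members in each of the 9 libraries over its mean in control, members in rows grouped by role and libraries in columns. The column of MCAO 5 is the strongest, MCAO 4 is the weakest of the 3 MCAO columns, and the hypidone columns are close to control.

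Within MCAO the members followed the libraries. MCAO 5 was the highest of the 3 for 41 of 48 members, MCAO 4 the lowest for 35, and the order MCAO 4, 6, 5 held for 34. Over all tested genes these held for 43%, 38.5% and 30.2%. The median ratio of a member to its control mean was 1.21 in MCAO 4, 1.59 in MCAO 6 and 2.61 in MCAO 5. Over all tested genes that median was 0.977 in MCAO 4, 0.972 in MCAO 6 and 0.982 in MCAO 5. MCAO 5 was at least 2 times the control mean for 28 members, MCAO 6 for 18 and MCAO 4 for 1. Of all tested genes 16.5%, 10.5% and 5.01% reached that level in MCAO 5, 6 and 4, so the count in MCAO 4 is not above that share. Members differed in how far the 3 libraries lay apart. MCAO 5 over MCAO 4 was 9.86 for Ctsc, 8.96 for Lipa, 7.88 for Gusb and 6.71 for Grn, and the highest over the lowest MCAO library was 1.53 for Galc, 1.44 for Sumf1, 1.26 for Psap and 1.22 for Ctsf. MCAO 4 alone was above the 6 libraries of the other groups for 24 members, among them Ctsd, Ctsl, Lgmn, Grn, Galc, Psap and Lamp1, within their range for 17 and below it for 7, among them Hexa, Lipa, Tpp1 and Cln3. Over all tested genes MCAO 4 was above the 6 for 29.2% and below for 30.7%. Without MCAO 5, 23 members rose in MCAO, all of them among the 26, against 11.9% of all tested genes, and 15 were lower with hypidone, against 10.7%.

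Summed markers of phagocytes followed the same order of libraries. The summed level of 10 activated phagocyte markers was 1478 to 1991 CPM in control, 2677, 15293 and 5230 CPM in MCAO 4, 5 and 6, and 1535 to 2068 CPM with hypidone, and 8 of the 10 rose in MCAO. These markers were Trem2, Tyrobp, Itgax, Spp1, Apoe, Lpl, Clec7a, Axl, Cd14 and Fcer1g. A sum of CPM weighs the most abundant genes most, so it is not a measure of cell number. The sum of 9 macrophage markers was 16.9 to 21.2 CPM in control, 33.5, 1799 and 179.9 CPM in MCAO 4, 5 and 6, and 34.6 to 118 CPM with hypidone, and 5 of the 9 rose. The sum of 10 homeostatic microglia markers was 383 to 424 CPM in control, 325, 861 and 499 CPM in MCAO and 405 to 488 CPM with hypidone, and 1 of the 10 rose. The median log2 fold change of these 10 in MCAO was -0.02, so the sum does not stand for each of them. In MCAO 4 that sum was below every other library, and the activated phagocyte sum was above all libraries of the other groups. Of the members, 24 were above those libraries in MCAO 4, 17 within their range and 7 below it. Other cell types moved as well. The sum of 5 endothelial markers was 98.5 to 163 CPM in control, 183, 363 and 246 CPM in MCAO 4, 5 and 6 and 145 to 178 CPM with hypidone, and Cldn5, Cdh5 and Pecam1 rose. The sum of 7 astrocyte markers was 3946 to 4779 CPM in control, 4231, 6779 and 7938 CPM in MCAO 4, 5 and 6 and 4497 to 4917 CPM with hypidone, and Gfap and Sox9 rose. Over all tested genes 10.6% were higher in MCAO, so the 1 of 10 homeostatic microglia markers is near that share. The part of these cell types in the lysosomal values was not tested. Summed levels of 5 erythrocyte markers were 4.31 to 28.0 CPM in MCAO and 71.3 to 187 CPM with hypidone, while control had 41.9 to 72.8 CPM. All 5 were higher with hypidone than in MCAO, against 8.23% of all tested genes.

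**Figure D3:**
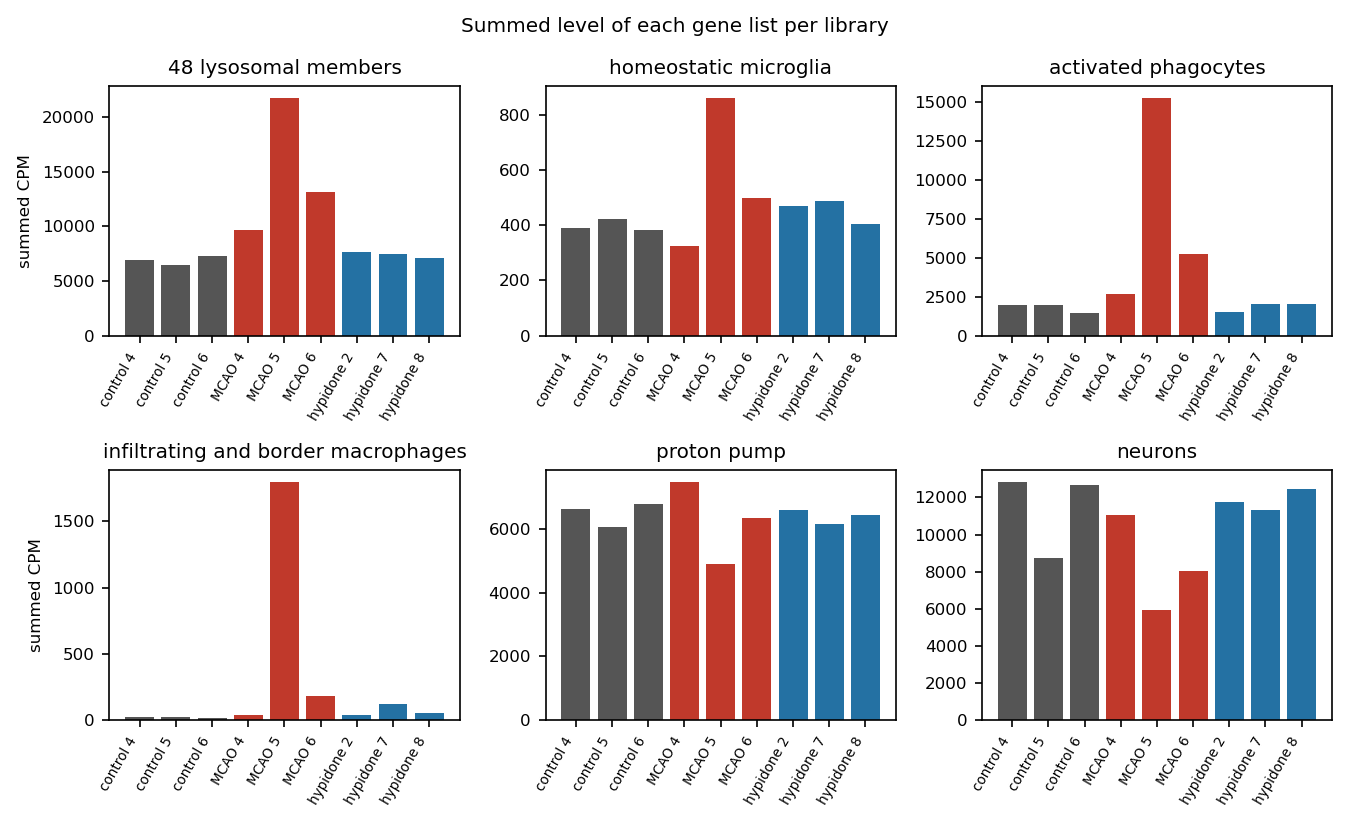
Summed CPM in each of the 9 libraries of the 48 members, the proton pump genes and the markers of homeostatic microglia, activated phagocytes, macrophages and neurons. The members, the activated phagocyte markers and the macrophage markers are highest in MCAO 5 and next highest in MCAO 6, while the proton pump genes are lowest in MCAO 5, at 4903 CPM.

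Genes around the 48 were read from 7 other lists. Of 22 tested hydrolases and activators outside the 48, 7 rose in MCAO and 1 fell, with a median of 0.84, beside 10.6% and 9.81% of all tested genes. The fucosidase Fuca1 rose by 1.17 ± 0.20 (adjusted p = 0.00727). With hypidone against MCAO Fuca1 was at -1.10 ± 0.20 (adjusted p = 0.0105), or not called without hypidone 2 at an adjusted p of 0.0506, with 6 of the list lower and 1, Siae, higher. Of 28 other lysosomal membrane proteins 9 rose and 0 fell, among them the peptide transporter Slc15a3 by 3.02 ± 0.32 (adjusted p = 0.00204), the cholesterol transporter Npc1 by 0.85 ± 0.14 (adjusted p = 0.00727) and Cd68 by 3.54 ± 0.68 (adjusted p = 0.0106). With hypidone 8 of these 28 were lower and 1 was higher, with Slc15a3 at -2.72 ± 0.31. Slc15a3 and Npc1 kept their calls in both comparisons whichever library was left out. The number of hydrolases that rose was 2 without control 6, 3 without control 4 and 15 without MCAO 4, and that of membrane proteins 4 without control 4 or control 6 and 6 without MCAO 6 or hypidone 7. With hypidone the hydrolases lower were 15 without MCAO 4, 4 without control 4 or 6, 2 without MCAO 6, hypidone 7 or hypidone 8 and 1 without hypidone 2, and the membrane proteins lower were 13 without MCAO 4, 5 without control 6, 3 without MCAO 6 and 2 without any 1 hypidone library. Cd68 rose by 2.36 without MCAO 5, and Siae, lower in MCAO by -1.08 ± 0.30, lost its call without control 4, at an adjusted p of 0.107, and without several others.

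Of 19 tested subunits and accessory genes of the proton pump that acidifies the lysosome, 2 rose in MCAO and 0 fell, and the median log2 fold change was -0.05. The 2 of 19 is a share near the 10.6% of all tested genes that were higher. Those 2 were Tcirg1, the a3 subunit known from osteoclasts, at 2.82 ± 0.52 (adjusted p = 0.0093), and Atp6v0e at 1.17 ± 0.33 (adjusted p = 0.0376). With hypidone Tcirg1 was lower by -2.49 ± 0.51 (adjusted p = 0.0157) and no other subunit was called. Atp6v0e lost its call without any 1 library other than MCAO 4, with 0.69 without MCAO 5, and the fall of Tcirg1 lost its call without MCAO 6 or any hypidone library, at adjusted p of 0.0511 to 0.0736. Of 27 sorting and delivery genes 1 rose and 1 fell in MCAO, both core subunits of the tethering complexes HOPS and CORVET, while 10.6% of all tested genes rose and 9.81% fell. The number that rose was 0 without control 4, control 6 or MCAO 6 and 2 without MCAO 5, and the number that fell was 5 without MCAO 4 and 3 without MCAO 5. With hypidone 1 was higher, or 5 without MCAO 4 and 2 without MCAO 5. The genes that passed with all libraries were Vps11 at 0.65 ± 0.15 (adjusted p = 0.0198) and Vps18 at -0.71 ± 0.12 (adjusted p = 0.0077), and with hypidone against MCAO they were at -0.70 ± 0.15 and 0.77 ± 0.12, both called. Vps18 kept both calls whichever library was left out, while the rise of Vps11 was lost without control 4, control 6 or MCAO 6, and its fall without MCAO 6 or any hypidone library, at adjusted p of 0.0662 to 0.0774.

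Of 18 tested relatives of TFEB and mTORC1 signalling genes at the lysosome, 3 rose and 2 fell, with a median of -0.002. Of all tested genes 10.6% rose and 9.81% fell, so these counts are not far from the shares over all genes. The number that fell was 0 without control 4, control 6, MCAO 6, hypidone 2 or hypidone 7 and 3 without MCAO 4 or MCAO 5. Fnip1 and Fnip2, partners of folliculin, rose by 0.68 ± 0.10 and 1.42 ± 0.30, the GTPase Rragc rose by 0.70 ± 0.11, and Rheb and Lamtor2 had -0.38 ± 0.09 and -0.43 ± 0.12, at adjusted p of 0.00587 to 0.0367. With hypidone those 3 risers were lower, Rheb was higher and Lamtor2 was not called. Fnip1 kept both calls whichever library was left out. Fnip2 lost its rise without control 4 or 6 and its fall without hypidone 7 or 8, Rragc its fall without hypidone 7, and Rheb and Lamtor2 their falls in MCAO without several libraries, at adjusted p of up to 0.118. Of 26 autophagy genes 4 rose and 2 fell, with a median of 0.03, beside 10.6% and 9.81% of all tested genes. The counts were 1 and 1 without control 4, control 6, MCAO 6, hypidone 7 or hypidone 8, 1 and 2 without hypidone 2, 2 and 4 without control 5, 3 and 4 without MCAO 4 and 5 and 3 without MCAO 5. Among them Uvrag rose by 0.67 ± 0.14, while the protease Atg4b and the conjugated protein Atg12 fell by 0.59 and 0.50 on the log2 scale, and with hypidone 2 were higher and 3 lower, or 0 and 0 without MCAO 6 or any 1 hypidone library. The rise of Uvrag and the fall of Atg4b in MCAO held whichever library was left out, and that of Atg12 did not hold without control 4, control 6, MCAO 6, hypidone 7 or hypidone 8, at adjusted p of 0.0513 to 0.0934. Of 4 cystatins, inhibitors of cysteine cathepsins, Cst7 rose in MCAO by 5.77 ± 1.17 (adjusted p = 0.0124) from 0.0601 to 0.190 CPM in control to 3.24, 13.3 and 6.45 CPM in MCAO 4, 5 and 6. The control values rest on few reads, and the call was lost without control 4 or 6, at an adjusted p of 0.0551 without control 6. With hypidone Cst7 was at 3.54, 0.708 and 0.146 CPM in hypidone 2, 7 and 8 and was not called against MCAO (adjusted p = 0.111). Against control, 0 genes of these 7 lists were called with hypidone by edgeR.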

How the data were processed

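Gene-level values are deposited by the authors as raw counts and as FPKM, which divides each count by library total and gene length. Another deposited table holds the authors' fold changes (ratios) and q-values for MCAO against control and hypidone against MCAO. Build mm10 and DESeq2 appear, without a role, in the submitters' processing notes. No aligner, counter or strand setting is stated, so reads of genes that overlap on opposite strands, as Grn and Fam171a2 or Gga3 and Mrps7 do, cannot be told apart.

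From the counts, genes were kept with edgeR's filterByExpr (14756 of 18138) and scaled with TMM. All 9 libraries entered 1 quasi-likelihood fit with 6 residual degrees of freedom (edgeR 4.0.16, R 4.3.3), with two-sided F tests, Benjamini-Hochberg adjustment over all tested genes and a threshold of 0.05. SE is the log2 fold change over the root of F. Limma 3.58.1 and DESeq2 1.42.0 served as alternatives, and log2(FPKM + 1) or log2(FPKM + 0.1) for limma. Groups come from the treatment labels. Replicates are libraries of a group, and since no label ties them to separate animals, p-values measure the spread between libraries, which may be technical. No 2 libraries of a group agreed within sampling noise.

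The members and all lists were chosen with earlier results of these data known. Values in every library are given for members called in at least 2 comparisons, the 3 lowest p in each comparison, the member called against the rest, Tfeb and Grn. From each other list up to 3 called genes with the lowest p are named per comparison, apart from a few not reported here, and Siae, Rheb and Lamtor2 were named in addition after their values were seen. Promoter sequences and their starts are RefSeq's (GRCm38.p6), and positions of genes and exons are from GENCODE M21.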

Additional observations from a re-analysis of the deposited data

How the results depend on the processing

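No called member changed direction under any alternative. Members higher in MCAO (26 as reported) numbered 17 with limma on log2(FPKM + 1), 13 with that and no filter and 4 with only the 2 groups in the fit, where 8.67%, 6.09% and 2.38% of all genes were, and 6 to 31 (3.19% to 15.7%) when 1 library was left out. Members lower in MCAO (1 as reported) numbered 2 with limma voom (25.6%), and 1 (3.98% to 12.8%) whichever library was left out. Members lower with hypidone than in MCAO (18) numbered 11 with log2(FPKM + 1), 11 with log2(FPKM + 0.1), 5 with log2(FPKM + 1) and no filter and 9 with only the 2 groups (7.54%, 7.81%, 5.35% and 6.66% of all genes), and 1 to 30 (1.55% to 14.1%) on leaving out a library. Members higher with hypidone (1) numbered 2 with DESeq2, 3 with limma voom, 2 without control 5 and MCAO 5 together (an alternative chosen after seeing the data) and 1 to 2 (2.1% to 11.7%) on leaving out a library. The first 3 counts lie below the 10.1%, 26.5% and 16.3% of all genes called higher there. Without those 2 libraries 22 members were higher in MCAO (15.7%) and 21 lower with hypidone (16%). The cause of these differences was not tested. Hypidone against control had 0 members called in every setting. The fall of Gga3 and rises of Ctsl, Galc, Man2b1 and Sumf1 in MCAO kept their calls in 20 of 21 alternatives, and the changes of Galc and Gga3 with hypidone in all 20.

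Control and MCAO libraries share the numbers 4, 5 and 6, but deviations of same-numbered libraries correlated at 0.12, 0.12 and -0.04, so the numbers do not show pairs. With the replicate block 0 members were higher and 0 lower by edgeR at the adjusted threshold, and 25 and 1 at an unadjusted p under 0.05. At that unadjusted threshold 13% of all tested genes were higher and 13.6% lower. No gene of the whole table was called in that fit.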
